A study of Mus musculus with 71 samples.

Results

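The 2356 regions described here are chromatin intervals that opened between days 9 and 11 in wild-type spinal cord progenitors and stood at a similar level in mutant progenitors on day 11. They are 1.51% of the 155738 intervals in the authors' table, and 33.6% of the 7009 intervals that opened late in wild type by the same conditions. Members were chosen by measured values, on the mean of log2(normalised reads + 5) in each group. The wild-type mean over populations differed by less than 0.5 between days 9 and 5 and was at least 1 higher on day 11 than on day 9. The mutant mean on day 11 lay within 0.5 of the wild-type mean, and the populations of wild type on day 11 lay within a range of 1. Wild-type days 5, 9 (NFIAn) and 11 and mutant day 11 therefore fixed the choice, and their values are given as a description without a test. All tests below use groups that did not enter it, or differences between populations within a group of which only the mean entered. Limits set by the rule can still carry over to groups with a like course, so all intervals are an imperfect background.

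The cells were ventral spinal cord progenitors made from mouse embryonic stem cells in the dish. Their open chromatin was read in 71 libraries by CaTS-ATAC, a form of ATAC-seq for fixed cells sorted by intracellular marker proteins. All groups received bFGF, then the GSK3β inhibitor CHIR99021, then retinoic acid with Smoothened agonist, and Smoothened agonist alone from day 5. The populations were p0-p1, p2 and pMN. The mutant groups, labelled MUT, were NFIAn for all 3 populations on days 5, 7, 9 and 11, with 3 libraries a group and 2 on day 9. The wild-type groups, labelled WT, were NFIAp for all populations on day 11 and for p2 and pMN on day 9, and NFIAn for all populations on days 5, 7 and 9, with 2 or 3 libraries a group. Which gene was mutated, the parental line and the number of clones are not given in the labels. NFIAn and NFIAp are read here as cells sorted without and with the protein NFIA, so genotype and fraction cannot be told apart on day 11, and day and fraction cannot be told apart between the ends of the WT course.

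In the ventral neural tube, graded Sonic hedgehog sets up progenitor domains that differ in their transcription factors. The pMN domain, marked by OLIG2, produces motor neurons and later oligodendrocyte precursors, while p0, p1 and p2 lie dorsal to it and produce interneurons. With time all domains move from making neurons towards making glia, and NFIA is a transcription factor known for its part in this switch. ATAC-seq reads where the transposase Tn5 can reach DNA, so an interval with more reads is a more open one. The regions are named by their numbers in the table, which pairs them with no position or gene, and no sequence is printed.

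Each library held between 20034731 and 31315134 reads in intervals, with a median of 24375871. The labels leave unsaid whether replicates were separate cultures, and the spread behind each p-value, that between libraries, may be technical. In bulk libraries, fewer cells with an open interval and a smaller opening in each cell cannot be told apart. A run of 5 intervals with consecutive numbers, used as a check of genotype, held at most 1 read in 32 of 33 MUT libraries and 148 to 519 reads in 37 of 38 WT libraries. The library labelled MUT D7 pMN replicate 3 held 213 reads there and the library labelled WT D7 pMN replicate 3 held 0, both against their labels. Replicate 2 of the library group labelled WT D9 p2 NFIAp correlated better with the mean of the pMN NFIAp libraries (r = 0.976 over all intervals, 3 libraries) than with the other p2 NFIAp libraries (r = 0.957, 2 libraries). WT D7 p2 replicate 2 held the 519 reads in the run of 5 intervals, against 232 and 214 in the other libraries of its group. It correlated best with those p2 libraries (r = 0.977), against 0.969 with p0-p1 and 0.965 with pMN of WT day 7. Its root mean square difference from its group was 0.436 on the log2 scale, against 0.431 and 0.36 for the others. Only the read number in the run thus sets this library apart in these checks. None of these 4 libraries is in a group that chose the members, and the tested counts and medians of MUT and WT that rest on them are given with and without them. Where a named interval is fitted with them, the values without them are given if the call was lost.

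The members were weakly accessible at first and lay above the middle of all intervals at the end. Their median level in MUT groups was 13.5 to 15.1 normalised reads on day 5, 11 to 13.5 on day 7, 15.9 to 16.9 on day 9 and 37 to 47.1 on day 11. In WT it was 12.1 to 14.1 reads on day 5, 10.6 to 11.7 on day 7, 19.1 to 19.5 in the NFIAp and 13.6 to 14.9 in the NFIAn groups of day 9, and 41.1 to 47.6 on day 11. Both courses thus had their lowest median on day 7 and their highest on day 11, in every population. The median of all intervals lay between 25.2 and 33.6 reads in all 26 groups. By rank, the median member stood at percentile 23.1 to 26.1 of all intervals in the day 7 groups and at percentile 54.3 to 60.7 in the day 11 groups.

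**Figure D1:**
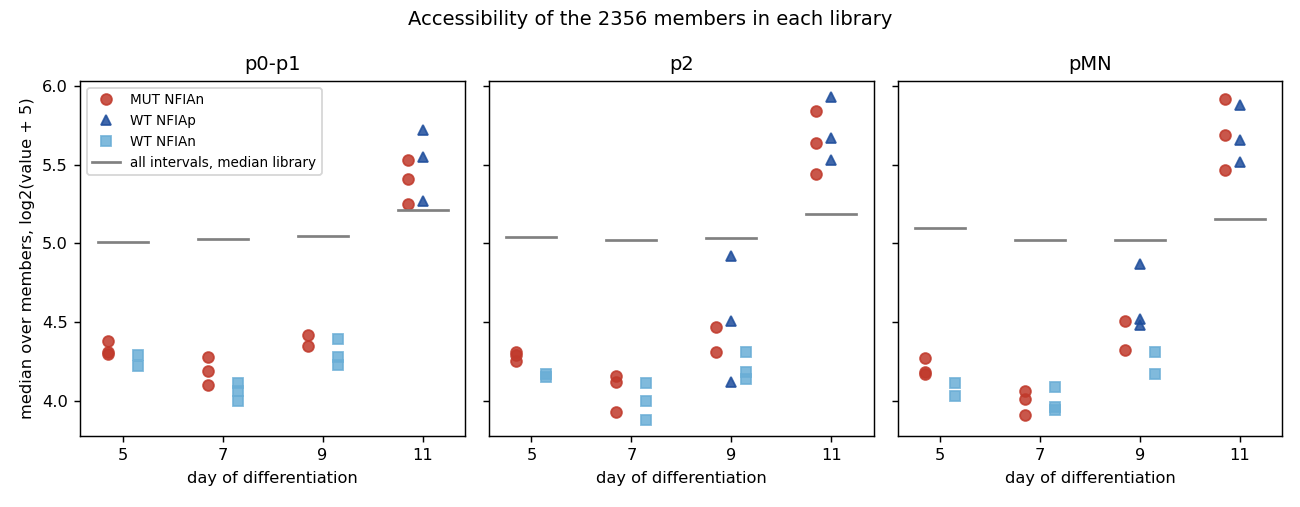
Median over the 2356 members of log2(normalised reads + 5) in each library, against day, for p0-p1, p2 and pMN, with MUT as red circles, WT NFIAp as dark triangles and WT NFIAn as light squares; grey lines give the median of all intervals in the median library. Member medians lie between 5.25 and 5.92 in MUT libraries of day 11 and between 3.91 and 4.28 in MUT libraries of day 7, and one WT NFIAp p2 library of day 9 lies at 4.12, apart from the others of its group.

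Between days 9 and 11, the MUT course had a median difference of 1.10 on the log2 scale over the members, with an interquartile range of 0.84 to 1.37, against -0.01 over all intervals. In 1421 members, or 60.3%, MUT day 11 was at least 1 above MUT day 9, and in 686 members this held in each population. Only 2 of the 2356 members were lower in MUT on day 11 than on day 9. In WT, day 11 lay a median of 1.11 above the NFIAp groups of day 9 and 1.39 above the NFIAn groups of day 9 in p2 and pMN. The late-opening intervals that were at least 1 lower in MUT on day 11, 3226 in number, had a median of 0.20 between days 9 and 11 in MUT. These values are descriptions, since MUT and WT of day 11 entered the rule.

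The members' share of all normalised reads shows the same course. It was 0.313% to 0.374% in the MUT libraries of day 5, 0.234% to 0.319% on day 7, 0.341% to 0.435% on day 9 and 0.71% to 1.11% on day 11. In WT it was 0.282% to 0.306% on day 5 and 0.204% to 0.274% on day 7. On WT day 9 it was 0.295% to 0.541% in NFIAp libraries and 0.282% to 0.357% in NFIAn libraries, and on WT day 11 it was 0.67% to 1.02%. Ranges of MUT and WT overlapped on days 7, 9 and 11, and on day 5 all MUT libraries lay above all WT libraries.

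Agreement on day 11 was set for the mean of the populations and was looser in single populations. In 1408 members, or 59.8%, MUT lay within 0.5 of WT in each of the populations. In 30 members at least 1 population differed by 1 or more. In p0-p1, 8 members were at least 1 lower in MUT and 0 at least 1 higher; in p2 these counts were 3 and 2, and in pMN 8 and 9. MUT minus WT had a median of -0.13 for p0-p1, -0.12 for p2 and -0.04 for pMN, where all intervals had medians of 0.03 to 0.05. With equal library totals in place of the authors' size factors, the members' median over populations was 0.03, against -0.12 with the authors' size factors. The sign of the members' median thus depends on the scaling. It lay below the median of all intervals in each, which was 0.17 with equal totals and 0.05 with the authors' size factors. With quantile normalisation the members' median was -0.05 and that of all intervals 0.09.

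The strongest members on day 11 show the scale of the opening. Interval_93180 had 1279, 1264 and 1034 reads in p0-p1 libraries, 1613, 1503 and 1282 in p2 and 1742, 1624 and 1520 in pMN of MUT day 11. In WT day 11 it had 1458, 1570 and 1396 reads in p0-p1 libraries, 1690, 1756 and 1718 in p2 and 2366, 2134 and 2166 in pMN. The genotypes overlapped in no population here, with MUT below WT in each, although the mean met the rule. On day 9 it had 170 to 292 reads over the 6 MUT libraries, and 163 to 547 over the 6 WT NFIAp libraries. Interval_106868 and Interval_144811 were the next strongest, and neither began from a low level. Interval_144811 had 434 to 849 reads in MUT and 399 to 805 in WT on day 5, far above the median of all intervals.

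The first question for groups outside the rule was whether the members had begun to open in MUT by day 9. Tests used limma on log2(normalised reads + 5), with all 71 libraries in 1 fit. Rose and fell are used for intervals with an absolute log2 change of 1 or more and a p under 0.05 after Benjamini-Hochberg adjustment over all 155734 intervals tested. All 2356 members passed the filter on low values and were tested. From day 7 to day 9 in MUT, 31 members (1.32%) rose and 0 fell, against 3.85% of all intervals that rose and 4.11% that fell. Single members thus passed the call less often than intervals at large, while the median member change was 0.31 (interquartile range 0.13 to 0.50), against 0.03 over all intervals, and 2035 members (86.4%) had a change above 0, against 52.3% of all intervals. The rule limited the change between WT days 5 and 9, so the choice of members may itself have lowered the share called by day 9. The median standard error of a member was 0.18. An unadjusted p under 0.05 in either direction was found in 1080 members (45.8%), against 52.7% of all intervals. Intervals at least 1 lower in MUT on day 11 had a median of 0.08.

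How the members' count compares with the background differed between settings. edgeR on the recovered reads called 202 members (8.57%) higher and 0 lower, against 7.33% of all intervals higher, and a pseudocount of 1 gave 179 members (7.6%), against 6.99%. In these settings the members' share lay above that of all intervals, and with the pseudocount of 5 below it. The count was 50 without MUT D9 p2 replicate 2 and 53 without MUT D9 pMN replicate 2. Without the 4 doubted libraries it was 29, with a median change of 0.30, and 3.87% of all intervals rose.

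Members named from a test, here and below, were chosen in part for libraries that did not overlap in it. That lack of overlap is thus no separate result. Interval_38485 had the largest change of the MUT day 9 over day 7 comparison. In MUT it had 99.1 and 87 reads in p0-p1 libraries, 157 and 51.2 in p2 and 174 and 88.6 in pMN on day 9, against 27.7, 19.1 and 21.6, then 33.1, 24.8 and 11.7, and then 70.3, 54.3 and 30.9 reads in the same populations on day 7. No library of day 9 overlapped with day 7 in its population, and the change was 1.64 ± 0.21 (log2, standard error, adjusted p = 1.23e-09, limma). On MUT day 5 Interval_38485 had 43.2, 25.5 and 38.9 reads in p0-p1 libraries, 124, 87.6 and 72.9 in p2 and 211, 139 and 200 in pMN. Its change from day 5 to day 9 was 0.24 ± 0.21 (adjusted p = 0.301, limma). Interval_88398 had 84.6 and 48.9 reads in p0-p1 libraries, 124 and 53 in p2 and 67.1 and 33.3 in pMN of MUT day 9, against 13.4 to 35.5 over the 9 MUT libraries of day 7. Its change was 1.46 ± 0.22 (adjusted p = 1.73e-07, limma), and on MUT day 11 it had 241 to 622 reads. From day 5 to day 9 in MUT it changed by 0.34 ± 0.22 (adjusted p = 0.174, limma). Both intervals had fallen between MUT days 5 and 7, by changes of -1.39 ± 0.19 (adjusted p = 2.37e-09, limma) and -1.12 ± 0.2 (adjusted p = 2.8e-06, limma). In both intervals replicate 2 of day 9 lay below replicate 1 in every population.

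The members had stood higher in MUT on day 5 than on day 7. From day 5 to day 7 in MUT, 28 members (1.19%) fell and 0 rose, against 4.49% of all intervals that fell and 7.28% that rose. edgeR called 100 members lower and 21 higher. An unadjusted p under 0.05 in either direction was found in 862 members (36.6%), against 55.9% of all intervals. The median member change was -0.14, against -0.02 over all intervals, and 32% of members were above 0. Without the 4 doubted libraries 25 members fell and 1 rose, with a median of -0.14, where 4.38% of all intervals fell and 7.26% rose. In WT, where day 5 entered the rule, the median difference of day 7 from day 5 was -0.12. Across the longer span from day 5 to day 9 in MUT, 24 members (1.02%) rose and 2 fell, against 13.9% of all intervals that rose and 11.8% that fell. The median change was 0.16, against 0.01 over all intervals, and quantile normalisation gave 14 members higher and 5 lower.

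Interval_106051 was the clearest of the members that fell between days 5 and 7. It had 14.4, 25.5 and 20.4 reads in p0-p1 libraries, 20.6, 14.5 and 6.41 in p2 and 12.3, 15 and 18.6 in pMN of MUT day 7, against 60.2, 51 and 53.6, then 54.8, 53.4 and 53.8, and then 35.6, 45.4 and 38.9 on MUT day 5. All 9 libraries of day 7 lay below all 9 of day 5, a change of -1.39 ± 0.14 (adjusted p = 9.51e-14, limma). On MUT day 11 it had 46.8 to 99.3 reads, so its day 11 level overlapped with that of day 5. Interval_33314 followed the same course, with a change of -1.22 ± 0.16 between days 5 and 7 (adjusted p = 9.52e-10, limma).

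Interval_132547 differed from these, since it was higher on day 9 than on day 5 in every population, with no overlap of libraries, and reached its highest level in pMN. It had 131 and 198 reads in pMN of MUT day 9, against 17.8, 24.9 and 22.2 on day 5, and it had 118, 109 and 86.6 reads there on day 7. In p2 it had 25.7 and 34.4 reads on MUT day 9, against 2.15, 12.5 and 5.47 on day 5. In p0-p1 it had 22.1 and 21.7 reads on MUT day 9, against 13.6, 11.8 and 20 on day 5. The mean change over the populations was 1.59 ± 0.19 (adjusted p = 7.15e-11, limma). Interval_109575 rose by 1.38 ± 0.18 over the same span (adjusted p = 3.43e-10, limma), and also stood highest in pMN on MUT day 9, with 92.7 and 80.7 reads.

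In WT, the NFIAp cells of day 9 were outside the rule and allow a test of the same interval of time, for p2 and pMN. MUT cells of day 9 were NFIAn, so genotype and fraction cannot be told apart between these changes. The WT cells of the same fraction, NFIAn, entered the rule on day 9, and as a description lay a median of 0.23 above WT day 7, with 81.2% of members above 0 and 0.01 over all intervals, beside the median of 0.31 in MUT. For NFIAp cells of WT day 9 against WT day 7, 281 members (11.9%) rose and 0 fell, while 6.65% of all intervals rose and 7.84% fell. The median member change was 0.56 (interquartile range 0.30 to 0.80), against 0.01 over all intervals, and 93.8% of members were above 0, against 50.7%. Intervals at least 1 lower in MUT on day 11 had a median of 0.52 here, and 527 of 3226 (16.3%) rose. In p2 alone 303 members (12.9%) rose and 2 fell, against 6.68% and 7.89% of all intervals. In pMN alone 425 members (18%) rose and 0 fell, against 8.26% and 9.3% of all intervals. edgeR called 1 member lower in the mean of both populations and 1 in pMN, and 805 members higher in the mean. An unadjusted p under 0.05 in either direction was found in 1607 members (68.2%), against 57.5% of all intervals.

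These WT counts rest in part on single libraries. The count in the mean of both populations was 183 without WT D9 p2 NFIAp replicate 1 and 424 without replicate 2, and in p2 it was 145 and 556 without the same libraries. In pMN it was 269 without WT D9 pMN NFIAp replicate 1. Without the 4 doubted libraries, 540 members rose in the mean (median change 0.69), 660 in p2 and 516 in pMN. Of all intervals, 8.67%, 10.6% and 8.84% rose in these fits, more than with all libraries. With a pseudocount of 20, 2.46% of members rose in the mean, below the 3.04% of all intervals. Relative to the median of all intervals in the same library, the members' median in NFIAp libraries of WT day 9 was -0.13, -0.78 and -0.54 in p2 replicates 1, 2 and 3, and -0.18, -0.45 and -0.54 in pMN. The NFIAn groups of WT day 9 entered the rule, and libraries of WT day 9 with the same replicate number deviated together across intervals, with a mean r of 0.2 over 26 pairs, so the NFIAp groups are not fully independent of the choice. As a description, NFIAp lay a median of 0.30 above NFIAn in p2 and 0.35 in pMN, where all intervals had a median of 0.02 in each.

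Interval_38485 also led this comparison. It had 263, 113 and 159 reads in p2 and 258, 195 and 172 in pMN of WT day 9 NFIAp, against 22.7, 18.8 and 6.63 in p2 and 90.7, 51.9 and 31.6 in pMN of WT day 7. The libraries did not overlap in either population, and the change was 2.49 ± 0.23 (adjusted p = 1.17e-14, limma). On WT day 5, which entered the rule, Interval_38485 had 94.1 and 93.3 reads in p2 and 179 and 235 in pMN. Interval_79010 had 216, 243 and 99.3 reads in p2 and 424, 338 and 258 in pMN of WT day 9 NFIAp, against 21.7, 38.3 and 29.8 in p2 and 74.6, 68.9 and 67.6 in pMN of WT day 7, a change of 2.28 ± 0.19 (adjusted p = 4.02e-16, limma). It rose in MUT as well, by 1.31 ± 0.17 between days 7 and 9 (adjusted p = 4.22e-09, limma). From day 5 to day 9 its MUT change was 0.51 ± 0.17 (adjusted p = 0.00764, limma), short of a change of 1. In pMN alone, Interval_81747 rose by 2.25 ± 0.29 (adjusted p = 3.11e-09, limma), with 174, 103 and 91.8 reads on WT day 9 NFIAp, against 16.1, 21.2 and 26.2 on WT day 7. Interval_13022 rose there by 2.2 ± 0.32 (adjusted p = 6.12e-08, limma). In pMN of WT day 5 Interval_81747 had 34.1 and 54.3 reads, and Interval_13022 had 58.8 and 61.5.

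Interval_88968 and Interval_40437 were the 2 members that fell in p2. Interval_88968 had 19.7, 20.7 and 19.7 reads in p2 of WT day 9 NFIAp, against 37.9, 39.8 and 70.7 on WT day 7, a change of -1.07 ± 0.29 (adjusted p = 0.00262, limma). The NFIAp libraries lay close together and all below those of day 7. On day 11 its p2 level was 93.5, 95.5 and 46.8 reads in MUT and 92.8, 90.8 and 77.5 in WT. Interval_40437 changed by -1.07 ± 0.30 in p2 (adjusted p = 0.00417, limma), a call that was lost without the 4 doubted libraries (-0.72 ± 0.35, adjusted p = 0.101, limma).

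**Figure D2:**
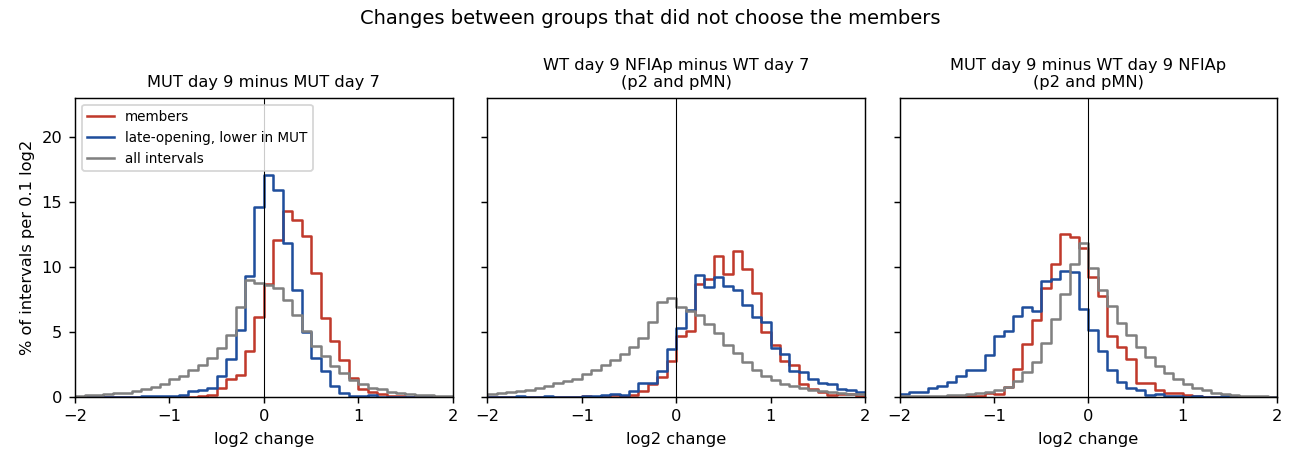
Distribution of log2 changes in steps of 0.1, as the percentage of intervals per step, for the members (red), late-opening intervals at least 1 lower in MUT on day 11 (blue) and all intervals (grey), in MUT day 9 minus MUT day 7, WT day 9 NFIAp minus WT day 7, and MUT day 9 minus WT day 9 NFIAp. The members' medians are 0.31, 0.56 and -0.16 in the 3 panels, and those of the blue curve 0.08, 0.52 and -0.41.

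The early changes of MUT and WT share no library, but libraries of the same day and replicate number in the other genotype deviated together (mean r 0.13 over 102 pairs), so they are not independent. Both were above 0 in 1947 members (82.6%), against 40.2% of all intervals. The changes had a Pearson r of 0.44 and a Spearman rho of 0.38 across the 2356 members, and of 0.75 and 0.70 across all 155734 intervals tested, as a description across intervals, which are not independent. Of the 31 members that rose in MUT, 19 were among the 281 that rose in WT NFIAp, which is 61.3% of the MUT list and 6.76% of the WT list. Over all intervals the shared calls were 56.7% of the MUT list and 32.8% of the WT list. Without the 4 doubted libraries, r was 0.40 over the members and 0.73 over all intervals, and 22 members were called in both, of 29 in MUT and 540 in WT.

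**Figure D3:**
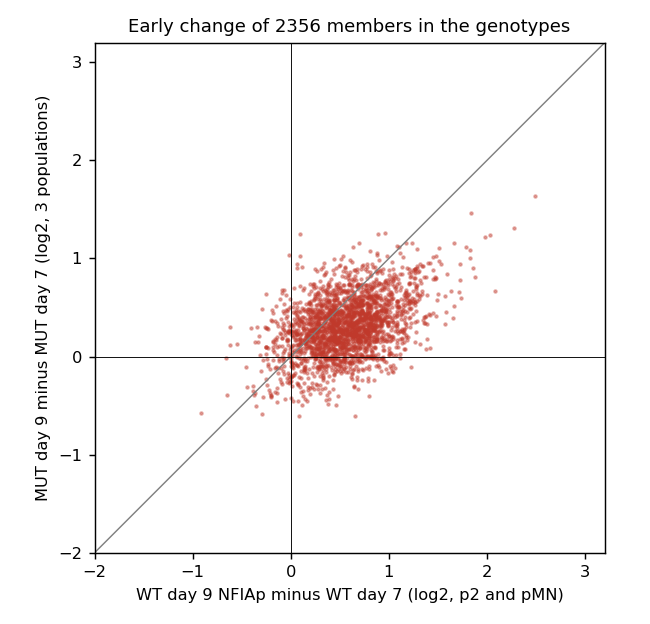
Each point is 1 of the 2356 members, with its log2 change in MUT day 9 minus MUT day 7 (mean of 3 populations) on the vertical axis and in WT day 9 NFIAp minus WT day 7 (mean of p2 and pMN) on the horizontal axis; the diagonal marks equal change. Most points lie right of 0 and above 0 (1947 members), and the cloud is centred below the diagonal, at medians of 0.31 and 0.56.

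MUT and WT were compared in this step by an interaction in p2 and pMN. MUT was NFIAn on both days, while WT was NFIAp on day 9 and NFIAn on day 7, so this test cannot tell genotype from fraction. In 23 members (0.976%) the change from day 7 to day 9 was smaller or more negative in MUT than in WT NFIAp, and in 2 it was larger, against 1.64% and 1.95% of all intervals. The median interaction was -0.20 over the members (-0.35 without the 4 doubted libraries), 0.00 over all intervals and -0.41 over intervals at least 1 lower in MUT on day 11, of which 416 of 3226 (12.9%) were called lower. With all libraries the members' share was below that of all intervals in both directions. The count of 23 was 5 without WT D9 p2 NFIAp replicate 1, 8 without WT D9 pMN NFIAp replicate 1 and 68 without WT D9 p2 NFIAp replicate 2. It was 54 without MUT D9 p2 replicate 1, 49 without MUT D9 pMN replicate 1, 8 without MUT D9 p2 replicate 2 and 9 without MUT D9 pMN replicate 2, and it was 94 (3.99%) without the 4 doubted libraries, where 2.82% of all intervals were called lower.

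Interval_67710 shows this difference. In MUT it had 24.7 and 15.8 reads in p2 and 41.4 and 27.2 in pMN on day 9, against 20.6, 18.6 and 20.3 in p2 and 13.4, 19.2 and 24.7 in pMN on day 7. In WT it had 66.7, 30.1 and 30 reads in p2 and 76.6, 64.5 and 51 in pMN of day 9 NFIAp, against 5.41, 5.06 and 13.3 in p2 and 18.4, 22.3 and 28.3 in pMN on day 7. Days overlapped in MUT p2 and did not overlap in WT, and the interaction was -1.21 ± 0.28 (adjusted p = 0.00268, limma). On day 11 it had 49.5 to 133 reads in p2 and pMN of MUT, and 60.5 to 129 in WT. Interval_65880 had an interaction of -1.24 ± 0.38 (adjusted p = 0.0277, limma), and reached 103 to 215 reads in pMN of MUT day 11, against 109 to 196 in WT.

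On day 9 itself, few members differed between MUT and WT NFIAp in p2 and pMN. In MUT 4 members (0.17%) were called higher and 8 (0.34%) lower, against 3.05% and 1.7% of all intervals. An unadjusted p under 0.05 in either direction was found in 587 members (24.9%), against 36.2% of all intervals. Of the intervals at least 1 lower in MUT on day 11, 417 of 3226 (12.9%) were already called lower in MUT on day 9. The median difference was -0.16 over the members, 0.01 over all intervals and -0.41 over the intervals lower in MUT on day 11. The split of 4 higher and 8 lower was 8 and 7 with equal library totals and 1 and 12 with quantile normalisation, and edgeR called 14 and 92, where 5.33% and 3.8% of all intervals were called. Without the 4 doubted libraries it was 2 and 22, where 3.65% and 2.42% of all intervals were called, and the members' median was -0.24.

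These day 9 counts also moved with single libraries. The 8 lower members became 25 without MUT D9 p2 replicate 1, 21 without MUT D9 pMN replicate 1, 5 without MUT D9 p2 replicate 2 and 2 without MUT D9 pMN replicate 2. They became 3 without replicate 1 of either WT D9 NFIAp group and 22 without WT D9 p2 NFIAp replicate 2. The 4 higher members became 11 without WT D9 p2 NFIAp replicate 1, 9 without MUT D9 p2 replicate 1 and 7 without MUT D9 pMN replicate 1. They became 2 without MUT D9 p2 replicate 2, WT D9 p2 NFIAp replicate 2 or WT D9 pMN NFIAp replicate 2. As a description, MUT day 9 lay a median of 0.16 above the NFIAn cells of WT day 9, against 0.07 over all intervals.

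Interval_82241 was one of the members lower in MUT. It had 20.9 and 12.1 reads in p2 and 22.7 and 15.8 in pMN of MUT day 9, against 68.6, 25.9 and 36.5 in p2 and 61.1, 34.9 and 42.8 in pMN of WT day 9 NFIAp. The difference was -1.09 ± 0.22 (adjusted p = 0.0001, limma), and no library overlapped within its population. Interval_38414 had a difference of -1.03 ± 0.21 (adjusted p = 9.42e-05, limma). Both had similar levels in the genotypes on day 11, by the rule.

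Among the members higher in MUT, Interval_95242 was highest in p2 on MUT day 9, while on MUT day 5 it was highest in pMN. It had 213 and 259 reads in p2 and 45.4 and 55.3 in pMN of MUT day 9, against 113, 32.1 and 97.4 in p2 and 33.9, 33.8 and 44.9 in pMN of WT day 9 NFIAp. The difference was 1.02 ± 0.21 (adjusted p = 0.00014, limma). The lowest p2 value, 32.1, belongs to the library that lay with pMN, and without the 4 doubted libraries the difference was 0.75 ± 0.19 (adjusted p = 0.0014, limma), short of the change of 1. The NFIAn cells of WT day 9 had 142, 182 and 173 reads in p2, between the MUT and the NFIAp values. Interval_118523 was higher in MUT by 1.18 ± 0.26 (adjusted p = 0.000333, limma).

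On day 7 no member differed between MUT and WT under limma, with 0 called higher and 0 called lower, against 0.0199% and 0.00835% of all intervals. edgeR called 6 members higher and 2 lower. An unadjusted p under 0.05 in either direction was found in 366 members (15.5%), against 20.7% of all intervals. The median difference was 0.08 over the members and 0.02 over all intervals. Without the 4 doubted libraries 2 members were called higher, where 0.0957% of all intervals were, and the median was 0.12.

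The rule set a limit on how far the populations of WT day 11 could differ and none directly on those of MUT day 11. The MUT day 11 libraries entered the rule through their mean, and the limit in WT can carry over to them. The share of members called here is therefore not independent of the choice. On MUT day 11, 373 members (15.8%) differed between p0-p1, p2 and pMN by the moderated limma F-test, with fitted means spanning 1 or more. Of all intervals 15.2% did, so the members' share was near the background. It was 14.3% against 17.4% with a pseudocount of 1, and 17.2% against 14.6% with quantile normalisation, so its side depended on the setting. The populations in which the called members were highest were not shared out alike. Of all members, 254 (10.8%) were called with pMN highest, against 4.56% of all intervals. With p2 highest there were 68 (2.89%), against 2.83%, and with p0-p1 highest 51 (2.16%), against 7.81%. Among called members, 68.1% were highest in pMN and 13.7% in p0-p1, while among all called intervals 30% were highest in pMN and 51.4% in p0-p1. The late-opening intervals at least 1 lower in MUT had 36 of 3226 (1.12%) called with pMN highest. These were chosen for low values in the same MUT day 11 libraries. Their median level there was 9.03 to 9.7 reads, against 37 to 47.1 for the members. A range of 1 is harder to reach at that level, so this share is not a like comparison.

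The difference of pMN from p0-p1 in MUT had a median over the members of -0.14 on day 5, -0.17 on day 7, 0.05 on day 9 and 0.37 on day 11, with 71.6% of members above 0 on day 11. All intervals had medians of -0.06, -0.01, 0.01 and 0.01 on the same days. Within replicate numbers 1, 2 and 3 of MUT day 11, the members' median was 0.47, 0.33 and 0.30, above 0 in each. In WT, where the rule used days 5, 9 and 11, the medians were -0.16, -0.09, -0.03 (0.09 with quantile normalisation) and 0.30. The WT values are a description, since WT day 11 chose the members and its range of populations was limited. On WT day 11 the late-opening intervals at least 1 lower in MUT had a median of 0.42. The higher level in pMN on WT day 11 was thus not particular to the members.

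**Figure D4:**
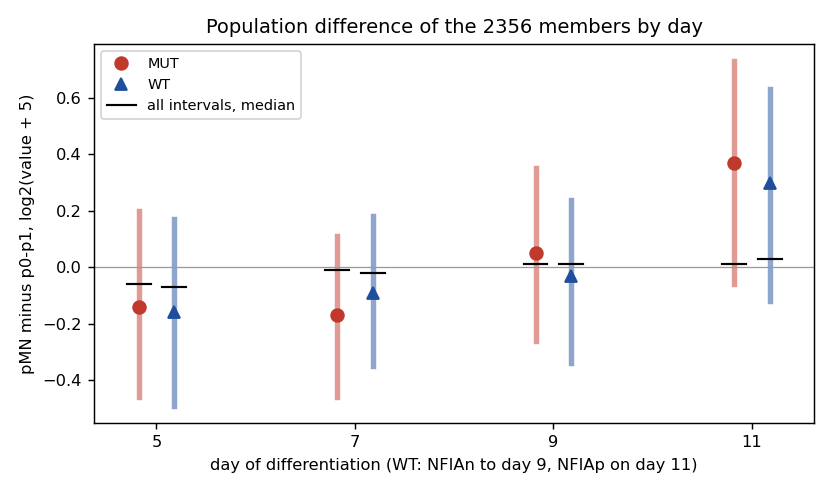
Difference of pMN from p0-p1 in log2(normalised reads + 5) by day, with the median over the 2356 members as a symbol (MUT red circles, WT blue triangles), the interquartile range as a bar and the median of all intervals as a black line. The members' median in MUT is 0.37 on day 11 and -0.17 on day 7, and in WT 0.30 on day 11 and -0.09 on day 7.

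On MUT day 9 the same test called 125 members (5.31%), against 11.4% of all intervals. With pMN highest there were 48 members, against 2.85% of all intervals, with p2 highest 41, against 3.72%, and with p0-p1 highest 36, against 4.82%. In each case the members' share, 2.04%, 1.74% and 1.53%, was below that of all intervals. MUT day 9 has 2 libraries a population and MUT day 11 has 3, and whether the population differences changed between these days was not tested.

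A member of each pattern shows how far MUT populations diverged on day 11. Interval_115840 had 114, 107 and 101 reads in pMN, 78.4, 75.4 and 54.1 in p2, and 37.7, 29.5 and 10.7 in p0-p1 of MUT day 11, a range of 1.98 (adjusted p = 2.47e-05, limma F-test). On MUT day 9 all its libraries lay between 1.92 and 19.7 reads. In WT day 11 it had 111, 59.1 and 62.2 reads in pMN and 54.6, 41.8 and 20.9 in p0-p1, so the pMN and p0-p1 libraries did not overlap in either genotype.

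Interval_13741 had the opposite order, with 247, 228 and 186 reads in p0-p1 libraries, 117, 111 and 117 in p2 and 44.7, 50.9 and 65.3 in pMN of MUT day 11, a range of 1.95 (adjusted p = 2.65e-09, limma F-test). In WT day 11 it had 228, 246 and 167 reads in p0-p1 libraries, 207, 188 and 115 in p2 and 131, 102 and 93.8 in pMN. The order is the same in WT, with all pMN values of MUT below all pMN values of WT. Interval_95242 was highest in p2 of MUT day 11, with 253, 276 and 158 reads. It had 109, 116 and 71.7 in p0-p1 and 66.5, 44.1 and 43.8 in pMN, a range of 2.04 (adjusted p = 4.62e-08, limma F-test). WT day 11 had 211, 222 and 179 reads in p2 and 110, 101 and 102 in p0-p1. In pMN WT had 128, 113 and 128, above all MUT pMN values. MUT day 9 had 213 and 259 reads in p2, 66.4 and 72.5 in p0-p1 and 45.4 and 55.3 in pMN. Days 9 and 11 of MUT thus overlapped in each population, without a clear late opening in this member.

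Interval_79010 adds a pMN case from the intervals that opened early. It had 900, 791 and 728 reads in pMN, 474, 348 and 344 in p2, and 298, 251 and 201 in p0-p1 of MUT day 11 (range 1.68, adjusted p = 4.77e-06, limma F-test). In WT day 11 it had 468, 444 and 373 reads in pMN, so the MUT pMN libraries all lay above those of WT, while in p0-p1 WT had 352, 406 and 249 reads.

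On MUT day 9, Interval_33096 was highest in p0-p1, with 75 and 64.3 reads, against 19 and 28.8 in p2 and 9.86 and 12.3 in pMN (range 2.22, adjusted p = 0.000137, limma F-test). Interval_114797 was highest in p2, with 44.7 and 67 reads, against 6.73 and 10.9 in p0-p1 and 5.92 and 9.65 in pMN (range 2.24, adjusted p = 2.98e-05, limma F-test). Interval_132547 was highest in pMN (range 2.63, adjusted p = 1.25e-07, limma F-test), and on MUT day 11 its populations had a range of 0.59 (adjusted p = 0.296, limma F-test). Its p0-p1 libraries held 79.6, 64.5 and 39.4 reads by then, against 22.1 and 21.7 on MUT day 9.

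**Figure D5:**
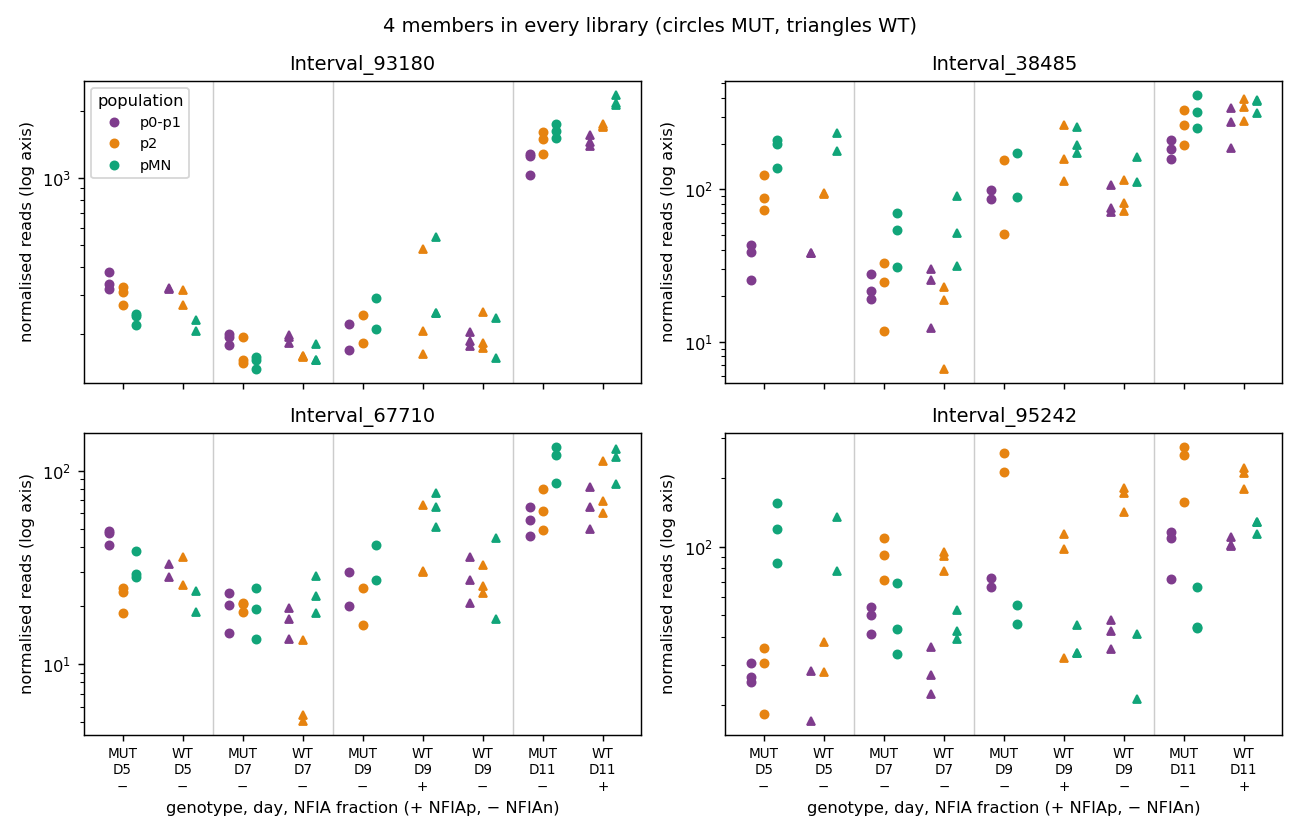
Normalised reads on a log axis in every library for 4 members, with MUT as circles, WT as triangles and colours for p0-p1, p2 and pMN; columns are genotype, day and NFIA fraction (+ NFIAp, − NFIAn). Interval_93180 has 1034 reads or more on day 11 and 140 to 547 before it, Interval_38485 dips on day 7, Interval_67710 is higher in WT NFIAp than in MUT on day 9, and Interval_95242 is highest in p2 from day 7 on, except in 1 WT NFIAp library.

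Libraries with the same replicate number shared part of their level on day 11. Relative to all intervals in the same library, the members' median in MUT day 11 p2 was 0.59, 0.45 and 0.30 in replicates 1, 2 and 3, and in WT day 11 p2 it was 0.65, 0.49 and 0.38. In pMN it was 0.68, 0.54 and 0.42 in MUT and 0.63, 0.49 and 0.40 in WT, and in p0-p1 0.26, 0.23 and 0.14 in MUT and 0.33, 0.30 and 0.18 in WT. Replicate 1 was thus highest and replicate 3 lowest in every population of both genotypes. Within each number MUT and WT differed by at most the spread between numbers. On day 9 replicate 1 was also the highest of its group in both genotypes, with -0.64 and -0.84 in p2 of MUT. What the numbers share is not given in the labels, and its part in the changes above was not tested.

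Calls were more frequent among strongly accessible members. With members split into 4 equal bins by their mean level over all libraries, the share that rose in WT day 9 NFIAp over WT day 7 was 1.87%, 7.3%, 16% and 22.6% from the lowest to the highest bin, and the share that rose in MUT day 9 over MUT day 7 was 0.509%, 0.17%, 1.87% and 2.72%. Over all intervals in the same level ranges these shares were 2.16%, 4.53%, 7.95% and 9.09% in WT, and 0.755%, 2.29%, 4.45% and 5.78% in MUT. Median changes varied less, from 0.41 to 0.69 in WT and from 0.25 to 0.38 in MUT. The lowest bin had mean levels of 3.88 to 12.2 reads, where the pseudocount of 5 reduces a fold change on the log2 scale most.

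Members near a threshold of the rule were many. The member nearest to the limit of 0.5 between MUT and WT on day 11 was Interval_59392, and the nearest interval outside was Interval_84182, at 0.5001. For the opening of at least 1 in WT these were Interval_119153 and Interval_145548, at 1.0000 and 0.9999. For the limit of 0.5 between WT days 9 and 5 they were Interval_8346 and Interval_96009, at 0.4998 and 0.5001, and for the range over WT day 11 populations Interval_61079 and Interval_154765, at 0.9994 and 1.0002. Within 0.1 of the opening threshold there were 465 members inside and 602 intervals outside, so the list has no sharp edge. By interval number, 123 members (5.22%) had another member at the next or previous number, where 2.99% of all intervals had one, and the longest run of members was 3. The table does not say whether the numbers follow genome order.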

How the data were processed

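The table the authors deposited holds signal values, which are reads in each interval scaled by a size factor that is constant within a library. The build was mm10 per the labels; aligner, peak caller and counter are not given in the sources used here. Dividing by the smallest increment of a library gave whole reads for 100% of values (tolerance 0.01). For WT D9 pMN NFIAn replicate 2 and MUT D11 p2 replicate 1 the increment was near 1 (0.997 and 1.006), so values lay close to whole reads. The intervals tested had at least 10 in at least 2 libraries (155734).

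The main test was limma 3.58.1 (R 4.3.3) on log2(value + 5), fitting 26 group means with a mean-variance trend and 45 residual degrees of freedom. The script was tested on simulated data. Figures used matplotlib 3.10.9. Named intervals were the 3 strongest on day 11, and per comparison at most 2 in each direction (or 1 per population) with the largest called change, a mean level at or above the members' median and no overlap of libraries within a population, and those nearest to each threshold. Where the text adds a value of an interval under another comparison, it was chosen after its values were seen. The members and lists were chosen with earlier results of these data known. Alternatives included edgeR 4.0.16 on recovered reads.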

Additional observations from a re-analysis of the deposited data

Results flagged for a closer look

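The change from day 7 to day 9 differed between MUT and WT NFIAp by the interaction test in p2 and pMN for 2 members with a larger change in MUT and 23 with a smaller or more negative one, and these were picked out by that test. WT was NFIAp on day 9 and MUT was NFIAn, so genotype and fraction cannot be told apart. The 2 named examples were Interval_65880, with an interaction of -1.24, and Interval_67710, with -1.21. Interval_65880 had 31.4 and 19.5 reads in p2 of MUT day 9, against 29.7, 40.3 and 24.6 on MUT day 7, and 77, 37.3 and 40.3 in p2 of WT day 9 NFIAp, against 18.4, 26 and 18.8 on WT day 7. No group holds 4 or more libraries, so single libraries far from their group were not searched for by a rule.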

How the results depend on the processing

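The members themselves moved with the scale. The rule gave 2026 intervals with a pseudocount of 1 (1478 shared with the members), 1702 with 20 (818 shared), 1817 with quantile normalisation (1435 shared), 2268 with equal library totals (1716 shared) and 2194 to 2631 when single libraries were left out. With equal library totals the median of all intervals shifted to 0.11 in MUT day 9 over MUT day 7, and the members' median was 0.38. Of 29 median changes recomputed, 25 kept their sign under both other scalings. The exceptions were MUT minus WT on day 11, at 0.03 over the mean, 0.04 in p2 and 0.12 in pMN with equal library totals (-0.12, -0.12 and -0.04 as reported), and pMN minus p0-p1 in WT day 9, at 0.09 with quantile normalisation (-0.03 as reported).

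Counts of called members are given as higher, then lower. In MUT day 9 over MUT day 7, 0.127% of members were higher with a pseudocount of 20, against 1.51% of all intervals. With equal totals these shares were 2.33% and 4.95%. In MUT day 9 over MUT day 5, 7.43% were higher with a pseudocount of 1, against 18.8% of all intervals. In MUT day 7 over MUT day 5, 3.44% were lower with a pseudocount of 1, against 6.88%. For MUT day 9 over MUT day 7, those higher were 202 with edgeR, 179 with a pseudocount of 1, 3 with 20 and 55 with equal totals, and 21 to 53 leaving out single libraries (0 to 0 lower). For MUT day 9 over MUT day 5, they were 202 and 19 with edgeR, 175 and 15 with a pseudocount of 1, 2 and 0 with 20, 11 and 1 with a mean value of at least 30, 14 and 5 with quantile normalisation, and 43 and 1 with equal totals; single libraries gave 23 to 33 and 1 to 4. For MUT day 7 over MUT day 5, they were 21 and 100 with edgeR, 10 and 81 with a pseudocount of 1, and 3 lower with 20; 1 was higher with quantile normalisation and without the 4 doubted libraries, and single libraries gave 0 to 1 and 25 to 34.

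For WT day 9 NFIAp over WT day 7, edgeR gave 805 and 1. A pseudocount of 1 gave 682 (28.9%) and 1, against 10.9% of all intervals higher. A pseudocount of 20 gave 58 (2.46%) higher, against 3.04% of all intervals, so the members' share lay below the background there. Single libraries gave 183 to 424 and 0 to 1, and 540 were higher without the doubted libraries. In p2 the counts were 606 higher with edgeR, 528 and 4 with a pseudocount of 1, 71 and 0 with 20, 183 and 1 with a mean of at least 30, 1 lower with only the groups compared and 660 higher without the doubted libraries; single libraries gave 145 to 556 and 0 to 6. In pMN they were 756 and 1 with edgeR, and 774, 96 and 254 higher with a pseudocount of 1, of 20 and a mean of at least 30; single libraries gave 269 to 558 and 0 to 1.

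For MUT day 9 over WT day 9 NFIAp, edgeR gave 14 and 92, a pseudocount of 1 gave 16 and 50, and 20 gave 0 and 0; 3 were lower with a mean of at least 30, 1 higher with quantile normalisation and 8 higher with equal totals, and 2 and 22 were called without the doubted libraries. Single libraries gave 2 to 11 and 2 to 25. With a pseudocount of 1, 0.679% and 2.12% of members were called, against 5.3% and 3.02% of all intervals. For MUT day 7 over WT day 7, edgeR gave 6 and 2, a pseudocount of 1 gave 5 and 1, equal totals 1 higher and the doubted libraries left out 2 higher; single libraries gave 0 to 1 and 0 to 0. The interaction gave 1 and 40 with edgeR, 5 and 41 with a pseudocount of 1, 0 and 0 with 20, 1 and 11 with a mean of at least 30, 35 lower with quantile normalisation, 1 and 10 with only the groups compared and 1 and 94 without the doubted libraries; single libraries gave 1 to 6 and 5 to 68. The interaction called 1.74% of members lower with a pseudocount of 1 and 1.49% with quantile normalisation, against 1.75% and 1.94% of all intervals. Populations of MUT day 11 gave 106 (4.5%) with a pseudocount of 20, against 6.11% of all intervals. With a mean of at least 30 they gave 133 (14.3%), against 13.3%, and leaving out single libraries gave 312 to 484. Populations of MUT day 9 gave 37 (1.57%) and 81 (8.72%) in these settings, against 5.29% and 11.4%, and 92 to 143 leaving out single libraries. Fewer members were in the fit with a mean of at least 30, and fewer libraries when some were left out; the cause of the other differences was not tested.

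Replicate numbers pair libraries only by number. Same-numbered libraries of a genotype and day had residual correlations of 0.0425 to 0.426 (mean 0.218), and 9 of 9 libraries of MUT day 11 and 6 of 6 of MUT day 9 correlated best with their own number. A replicate block across all libraries gave 4 members lower in MUT day 9 over MUT day 5, and a random replicate block within genotype and day gave 1 and 12 for the interaction, 376 for populations of MUT day 11 and 168 for those of MUT day 9. A replicate block with only the groups compared, added after the data were seen, gave 376 and 169. The mean level of the lowest 589 members by level, 3.88 to 12.2 reads, limits what could be called there.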
